A study of Homo sapiens with 6 samples.

Results

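A group of 10 genes around the transcription factor STAT5 were examined in MOLM14 cells, a human acute myeloid leukemia (AML) line labeled with the FLT3 ITD genotype. They are STAT5A and STAT5B, the kinase genes PIM1, PIM2 and PIM3, the feedback inhibitor genes CISH, SOCS1, SOCS2 and SOCS3, and the repressor gene BCL6. They were chosen by name as genes that encode STAT5 or that cytokine signaling through STAT5 is known to control. Earlier results of these data were known when they were chosen. All 10 were among the 13244 genes of the deposited table and all 10 passed the filter on low counts. In HSN748-treated cells BCL6 was 4.42-fold and STAT5A 2.45-fold higher than in DMSO controls, STAT5B was 1.24-fold higher, and CISH, PIM1, SOCS3, SOCS1 and PIM3 were between 2.06-fold and 1.66-fold lower. PIM2 and SOCS2 did not pass the test.

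FLT3 is a receptor tyrosine kinase of blood progenitors, and an internal tandem duplication (ITD) makes it signal without its ligand. The duplicated receptor phosphorylates STAT5A and STAT5B, a pair of closely related transcription factors, which then enter the nucleus and bind DNA at paired TTC and GAA sites. Classical genes induced by STAT5 are CISH and the SOCS genes, whose proteins bind activated receptors or JAK kinases and damp the signal, and the PIM genes, whose serine/threonine kinases promote survival and protein synthesis and are active without a phosphorylation step. BCL6 encodes a zinc finger repressor that STAT5 is known to repress.

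RNA-Seq compared 3 MOLM14 cultures given 2 nM HSN748, an inhibitor of mutant FLT3, with 3 cultures given DMSO, the vehicle. All were harvested after 24 h, and the study describes such samples as biologically independent. Both groups therefore carry the same FLT3 ITD, come from 1 cell line grown in RPMI with fetal bovine serum, and are labeled as differing in treatment. The cultures are numbered 1, 2 and 3 (DMSO) and 7, 8 and 9 (HSN748), as in the labels. The counts measure mRNA, so they do not show whether STAT5 was phosphorylated or how much PIM or SOCS protein was present. In other samples, MV411 cells and MOLM14 tumors in mice, the study reported lower STAT5 phosphorylation after HSN748 by Western blot.

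Library totals lay between 35277785 and 59279430 counts. Levels are CPM, the counts of a gene per 1000000 counts of the library, scaled with TMM factors. A gene passed at an adjusted p under 0.05 in edgeR's quasi-likelihood F test, with Benjamini-Hochberg adjustment over 13084 genes, and every adjusted p is from that test. CPM is a share of the RNA sequenced, so the scaling sets where no change lies. Over all genes the median log2 fold change was 0.01 with TMM, 0.13 with the total count, 0.21 with upper-quartile factors and 0.48 with scaling to 11 reference genes, and the share of calls that were higher went from 50.1% with TMM to 61.6% with upper-quartile factors and 74.6% with the reference genes. Of 12 monocytic and myeloid markers, 10 were in the table (not analysed here were CD14 and CEBPE). Marker sums are CPM of the total count without TMM factors, while values of single genes are TMM-scaled. The myeloid sum was 1564 to 1599 CPM in DMSO and 3479 to 3651 CPM in HSN748. Of the 10, 7 were higher, 2 lower (MPO from 10.9 to 2.28 and FCGR1A from 38.9 to 26.8 CPM on average) and 1 did not pass, and FLT3 (396 to 1150 CPM) and LYZ (752 to 1267 CPM) gave most of the rise of the sum. No erythroid marker of 6, 1 T and NK cell marker of 8 (NKG7), 2 B cell markers of 5 (PAX5 and CD79A) and 2 epithelial markers of 5 were in the table. Their sums were 8.25 to 12.1 CPM (T and NK), 48.6 to 53.2 CPM (B) and 5.28 to 6.80 CPM (epithelial) in DMSO, and 18.1 to 21.2, 15.0 to 20.0 and 8.45 to 10.5 CPM in HSN748. The B cell sum followed PAX5 (53.1 to 16.5 CPM), while CD79A rose from 0.343 to 0.862 CPM (adjusted p = 0.00417). These sums differed between the groups without overlap, and their part in the members' changes was not tested. In bulk RNA, a change in the share of cells that express a gene and a change in the RNA per cell cannot be told apart.

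Of the 10 members, the promoters of CISH and BCL6 are shown because they were the only ones in which the STAT motif TTCNNNGAA was found. In all, 13 promoters of 9 members (all but SOCS2) were in the RefSeq promoter table of GRCh38.p14, each running from 250 bases before the start of the transcript to 50 bases after it. The motif is its own reverse complement, so that 1 search covers both strands. Both promoters lie on chromosome 3, minus strand, the CISH promoter at chr3:50611725-50612024 and the first BCL6 promoter at chr3:187745419-187745718. In the sequences, written 5′ to 3′, the capitals mark the matches.
CISH: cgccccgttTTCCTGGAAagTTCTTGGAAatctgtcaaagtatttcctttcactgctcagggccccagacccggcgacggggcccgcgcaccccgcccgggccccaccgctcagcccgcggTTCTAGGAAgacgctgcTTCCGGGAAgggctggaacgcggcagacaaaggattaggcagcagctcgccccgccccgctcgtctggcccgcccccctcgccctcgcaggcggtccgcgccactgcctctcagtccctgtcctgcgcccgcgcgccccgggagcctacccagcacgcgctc
BCL6: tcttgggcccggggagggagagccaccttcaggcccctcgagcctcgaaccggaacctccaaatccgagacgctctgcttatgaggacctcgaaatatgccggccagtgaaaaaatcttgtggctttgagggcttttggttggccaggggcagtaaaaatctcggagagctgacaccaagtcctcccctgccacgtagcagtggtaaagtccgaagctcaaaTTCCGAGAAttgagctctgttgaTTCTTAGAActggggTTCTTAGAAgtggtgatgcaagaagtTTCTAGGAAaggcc

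Each of these promoters held 4 matches, none overlapping another. With the first transcribed base as 1 and the base before it as -1, the CISH matches were at -241 to -233 (TTCCTGGAA), -230 to -222 (TTCTTGGAA), -129 to -121 (TTCTAGGAA) and -112 to -104 (TTCCGGGAA), all before the start. The BCL6 matches were at -28 to -20 (TTCCGAGAA), -5 to 4 (TTCTTAGAA), 11 to 19 (TTCTTAGAA) and 37 to 45 (TTCTAGGAA), around the start and inside the transcript. The other BCL6 promoter, and the promoters of STAT5A, STAT5B, PIM1, PIM2, PIM3, SOCS1 and SOCS3, held none in this window. For SOCS3 the windows, chr17:78360876-78361175 and chr17:78359618-78359917, do not hold 78360079, where the gene starts in the deposited positions. Sequence around that start was not searched, so a match there is not excluded. Of all 35116 promoters in the table, 2689 (7.66%) held at least 1 match and 7 (0.0199%) held at least 4. Among the tested genes, 3 had a promoter with at least 4, namely BCL6 (log2 fold change 2.14), CISH (-1.04) and the zinc finger gene ZNF225 (0.86, SE 0.10, adjusted p = 7.7e-05). A match is a match of letters and does not show that STAT5 was bound there.

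**Figure D1:**
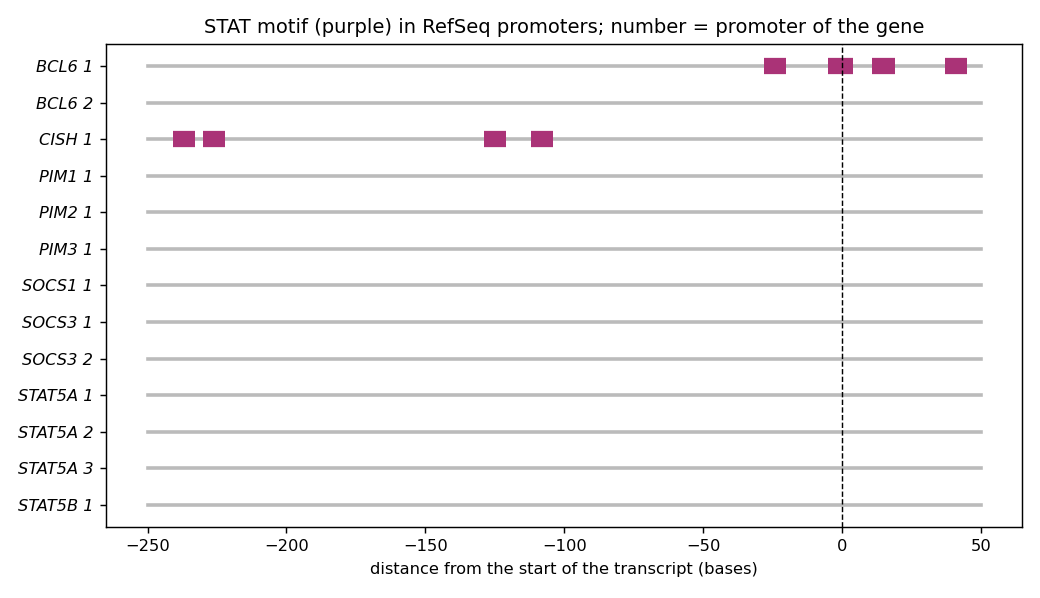
Position of the STAT motif in 13 RefSeq promoters of 9 genes. The horizontal axis is the distance in bases from the start of the transcript (dashed line), each grey line is 1 promoter, and each purple block is 1 match. CISH holds 4 blocks between -241 and -104, the first BCL6 promoter 4 blocks between -28 and 45, and the other 11 promoters none.

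Genes with this motif moved in both directions. Of 843 tested genes with at least 1 match in a promoter, 304 were higher (36.1%) and 296 lower (35.1%), with a median log2 fold change of 0.03. Of the 9916 tested genes that had a promoter in the table, 35.5% were higher and 37.7% lower, with a median of -0.03.

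STAT5A was higher in every HSN748 culture. It lies on chromosome 17 from 42287547 to 42311942 on the plus strand, and its neighbor STAT5B from 42199177 to 42276391 on the minus strand (positions of the deposited table, whose build is not named). STAT5A was at 33.7, 30.2 and 37.5 CPM in DMSO cultures 1, 2 and 3 and at 80.2, 78.4 and 89.1 CPM in HSN748 cultures 7, 8 and 9. The lowest HSN748 value was above the highest DMSO value by more than the whole range within either group. In log2 units the change was 1.29 (SE 0.10, 95% confidence interval 1.07 to 1.51, adjusted p = 4.0e-06), and 12.9% of all tested genes had a higher one.

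STAT5B rose less. Its level was 80.9, 82.7 and 83.3 CPM in DMSO and 97.2, 102 and 106 CPM in HSN748. The groups were tight and did not overlap. The change of STAT5B was 0.31 in log2 units (SE 0.07, interval 0.16 to 0.46, adjusted p = 0.00259), below the median absolute log2 fold change of 0.64 over all genes. Both STAT5 genes passed in the same direction in each of 14 alternative analyses, between 1.22 and 1.77 for STAT5A and between 0.29 and 0.79 for STAT5B.

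The make-up of STAT5 mRNA shifted toward STAT5A. Per kilobase of exon, STAT5A made up 32.0%, 29.2% and 33.7% of the summed level of both genes in DMSO and 48.3%, 46.5% and 48.8% in HSN748. The sum was 23.7 ± 0.906 CPM per kilobase (SD, n = 3) in DMSO and 38.4 ± 1.99 (SD, n = 3) in HSN748. The log2 ratio of STAT5A to STAT5B, which needs no scaling factor, went from -1.11 ± 0.152 to -0.12 ± 0.0696 (SD, n = 3 each), a difference of 0.99 with no overlap (exact two-sided permutation p = 0.1). With 3 cultures against 3 that is the smallest p this test can give, and adjusted over the 10 ratios examined it was 0.167, so that no ratio could pass. The genes share sequence. In GENCODE v29 transcripts, 507 of the 5889 windows of 50 bases in STAT5A (8.61%) also occurred in STAT5B. Of the 6491 windows of STAT5B, 580 (8.94%) occurred in some other gene, 507 of them in STAT5A. Reads from such windows may have been left out or split by the authors' counting. Read in the sense direction, none of the windows of the other 8 members occurred in another gene. The opposite strand was not searched, and the overlaps there of CISH, SOCS2 and BCL6 are given below.

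**Figure D2:**
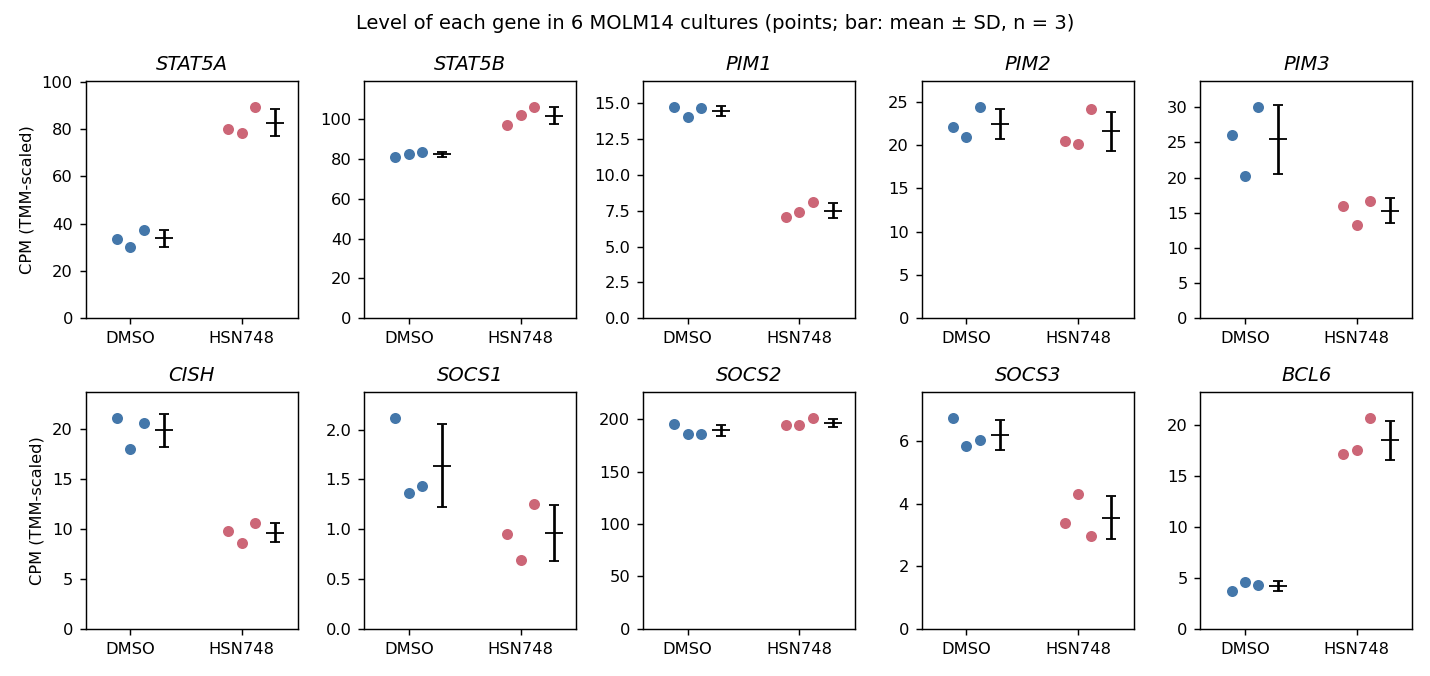
Level of the 10 genes in each culture, in TMM-scaled CPM on a vertical axis that starts at 0, with DMSO in blue and HSN748 in red and, beside the points, the mean ± SD (n = 3). BCL6, STAT5A and STAT5B lie higher in HSN748 and PIM1, PIM3, CISH, SOCS1 and SOCS3 lower, without overlap, while PIM2 and SOCS2 overlap.

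PIM1 and PIM3 fell and PIM2 did not pass the test. The study had already reported PIM1 as lower from these data. PIM1, on chromosome 6 from 37170152 to 37175428, was at 14.7, 14.0 and 14.6 CPM in DMSO and 7.05, 7.39 and 8.10 CPM in HSN748. Every HSN748 culture was far below the lowest DMSO culture, and the spread within each group was small. The log2 fold change of PIM1 was -0.94 (SE 0.10, interval -1.17 to -0.72, adjusted p = 3.1e-05), and it passed in the same direction in all 14 alternatives (-0.99 to -0.47).

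PIM3, on chromosome 22 from 49960772 to 49964072, was at 26.1, 20.2 and 30.0 CPM in DMSO and at 15.9, 13.3 and 16.7 CPM in HSN748. The groups did not overlap, although the DMSO cultures differed among themselves more than for PIM1. Its log2 fold change was -0.73 (SE 0.15, interval -1.08 to -0.38, adjusted p = 0.00226). When libraries were scaled to the reference genes it was -0.25 and did not pass (adjusted p = 0.102).

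PIM2, on the X chromosome from 48913182 to 48919024, was at 22.1, 21.0 and 24.4 CPM in DMSO and at 20.5, 20.1 and 24.2 CPM in HSN748. The groups overlapped. Its log2 fold change was -0.06 (SE 0.11, interval -0.30 to 0.18, adjusted p = 0.642). The interval leaves out a change as large as that of PIM1. The sign of this value was not stable, and scaling to the reference genes gave 0.42 with an adjusted p of 0.0034, above zero as with the upper-quartile factors (0.15) and the total count (0.07).

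Within the libraries, PIM2 thus took a larger part of the PIM mRNA in HSN748. Its share of the summed level per kilobase went from 38.4% ± 1.80 (SD, n = 3) to 50.8% ± 1.41 (SD, n = 3), that of PIM1 from 19.1% ± 1.80 to 13.6% ± 0.855, and that of PIM3 from 42.5% ± 3.48 to 35.6% ± 2.06. The sum of the PIM genes was 28.3 ± 3.26 CPM per kilobase in DMSO and 20.5 ± 1.98 in HSN748 (SD, n = 3 each). The log2 ratio of PIM1 to PIM2 was lower in HSN748 by 0.89 (HSN748 minus DMSO -0.89) and that of PIM2 to PIM3 was higher by 0.66, both without overlap (exact permutation p = 0.1 each). The ratio of PIM1 to PIM3 overlapped between the groups, with a difference of -0.23 (exact permutation p = 0.2), which was -0.09 without DMSO culture 2, -0.35 without DMSO culture 3 and -0.15 without HSN748 culture 7.

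**Figure D3:**
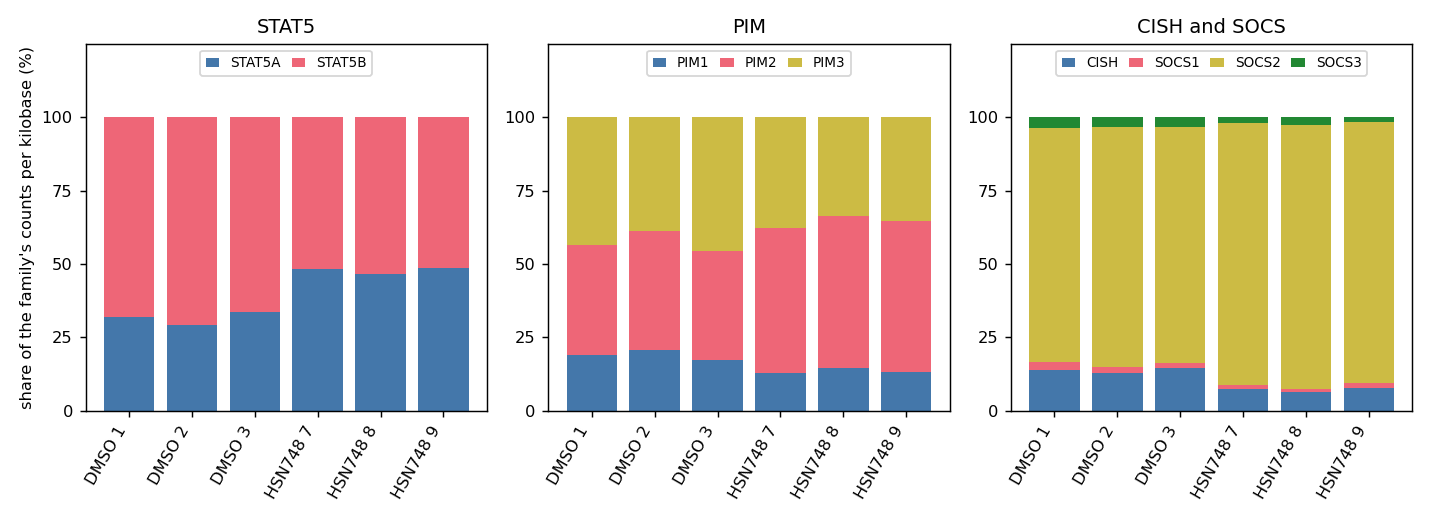
Share of each gene in the summed level of its family, in percent of CPM per kilobase, in each of the 6 cultures. STAT5A fills 29.2% to 33.7% of the STAT5 bar in DMSO and 46.5% to 48.8% in HSN748, and SOCS2 fills most of the CISH and SOCS bar in every culture.

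CISH fell and was the only member to fall by more than 1 on the log2 scale. It encodes the cytokine-inducible SH2 protein and lies on chromosome 3 from 50606454 to 50611774 on the minus strand. CISH was at 21.1, 18.0 and 20.6 CPM in DMSO and 9.78, 8.61 and 10.6 CPM in HSN748. No HSN748 culture came near the DMSO range. In log2 units CISH changed by -1.04 (SE 0.11, interval -1.30 to -0.78, adjusted p = 3.9e-05), and 14.1% of all tested genes had a lower one. It passed in the same direction in all 14 alternatives (-1.11 to -0.57), and it was within 1 under some of them.

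The next gene on the other strand, MAPKAPK3, encodes a kinase downstream of p38 and starts 88 bases from the start of CISH. It fell by about as much, from 90.6 ± 9.18 to 46.9 ± 3.08 CPM (SD, n = 3 each), which is -0.95 in log2 units (SE 0.09, adjusted p = 2.1e-05). The exons of these genes do not overlap in the deposited table. In GENCODE v29, 107 exonic bases of CISH (4.84% of its length) overlap MAPKAPK3, and whether the counting used the strand is not given in the sources used here, so the gene of origin of reads there is uncertain.

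SOCS3 fell. It encodes an inhibitor of JAK kinases bound to cytokine receptors and lies on chromosome 17 from 78356777 to 78360079. SOCS3 was at 6.73, 5.83 and 6.04 CPM in DMSO and 3.38, 4.30 and 2.97 CPM in HSN748, a low level in every culture and without overlap. On the log2 scale SOCS3 changed by -0.81 (SE 0.16, interval -1.18 to -0.45, adjusted p = 0.00158). Scaled to the reference genes it was -0.33 and did not pass (adjusted p = 0.120).

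SOCS1, which encodes a direct inhibitor of JAK kinase activity, on chromosome 16 from 11254417 to 11256182, rested on few reads. Its counts were 122, 58 and 52 in DMSO and 41, 26 and 62 in HSN748, or 2.12, 1.37 and 1.43 CPM and 0.957, 0.691 and 1.25 CPM. There was no overlap in CPM, but DMSO culture 1 stood above the other DMSO cultures and HSN748 culture 9 was close to them. The log2 fold change was -0.76 (SE 0.28, interval -1.40 to -0.12, adjusted p = 0.0354). SOCS1 did not pass without DMSO culture 1 (-0.52, adjusted p = 0.159), without HSN748 culture 7 (-0.73, adjusted p = 0.0953) or without HSN748 culture 8 (-0.56, adjusted p = 0.121), nor with the total count (-0.64, adjusted p = 0.0659), the upper-quartile factors (-0.55, adjusted p = 0.105) or the reference genes (-0.29, adjusted p = 0.358).

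SOCS2, a regulator of growth hormone signaling, on chromosome 12 from 93569969 to 93576745, was the most abundant of the family. It was at 196, 186 and 186 CPM in DMSO and 194, 195 and 201 CPM in HSN748, with overlap. The log2 fold change was 0.05 (SE 0.06, interval -0.09 to 0.20, adjusted p = 0.451), an interval that leaves out a fall of the size seen for CISH. Under other scalings SOCS2 passed as higher, at 0.18 with the total count (adjusted p = 0.0405), 0.26 with upper-quartile factors (adjusted p = 0.0040) and 0.53 with the reference genes (adjusted p = 3.4e-04). Its antisense neighbor SOCS2-AS1 rose from 5.89 ± 0.444 to 8.16 ± 1.20 CPM (SD, n = 3 each; log2 fold change 0.47, SE 0.14, adjusted p = 0.0136), and the exons of both share 88 bases (2.44% of SOCS2) in GENCODE v29 and none in the deposited table.

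SOCS2 therefore dominated the mRNA of the family. Per kilobase it made up 80.6% ± 1.10 of the summed level of CISH and the SOCS genes in DMSO and 89.4% ± 0.491 in HSN748 (SD, n = 3 each), while CISH went from 13.8% ± 0.787 to 7.15% ± 0.599. The sum itself was 65.1 ± 2.61 CPM per kilobase in DMSO and 61.0 ± 1.44 in HSN748 (SD, n = 3 each). The log2 ratio of CISH to SOCS2 was -2.55 in DMSO and -3.65 in HSN748, that of SOCS2 to SOCS3 was 4.53 and 5.41, and that of SOCS1 to SOCS2 was -5.30 and -6.12. In all of these the groups did not overlap (exact permutation p = 0.1 each). The ratios of CISH to SOCS1 (difference -0.28), CISH to SOCS3 (-0.23) and SOCS1 to SOCS3 (0.05) overlapped, with exact permutation p of 0.3, 0.5 and 1. These differences were not stable. That of CISH to SOCS1 was -0.43 without DMSO culture 1, -0.17 without DMSO culture 3 and -0.14 without HSN748 culture 9, and that of CISH to SOCS3 was -0.0024 without HSN748 culture 8 and -0.42 without HSN748 culture 9.

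BCL6 showed the largest fold change of the 10 genes. It lies on chromosome 3 from 187721377 to 187745468 on the minus strand. BCL6 was at 3.68, 4.55 and 4.33 CPM in DMSO and 17.2, 17.5 and 20.6 CPM in HSN748, from counts of 212, 193 and 157 and of 735, 660 and 1022. The groups lay far apart. BCL6 had a log2 fold change of 2.14 (SE 0.13, interval 1.85 to 2.44, adjusted p = 9.3e-07), and 5.05% of all tested genes had a higher one. It passed in the same direction in all 14 alternatives (2.05 to 2.62). In GENCODE v29, antisense transcripts overlap 171 (AC072022.1, 4.59%) and 59 (AC072022.2, 1.59%) of its exonic bases, while no gene of the deposited table does.

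**Figure D4:**
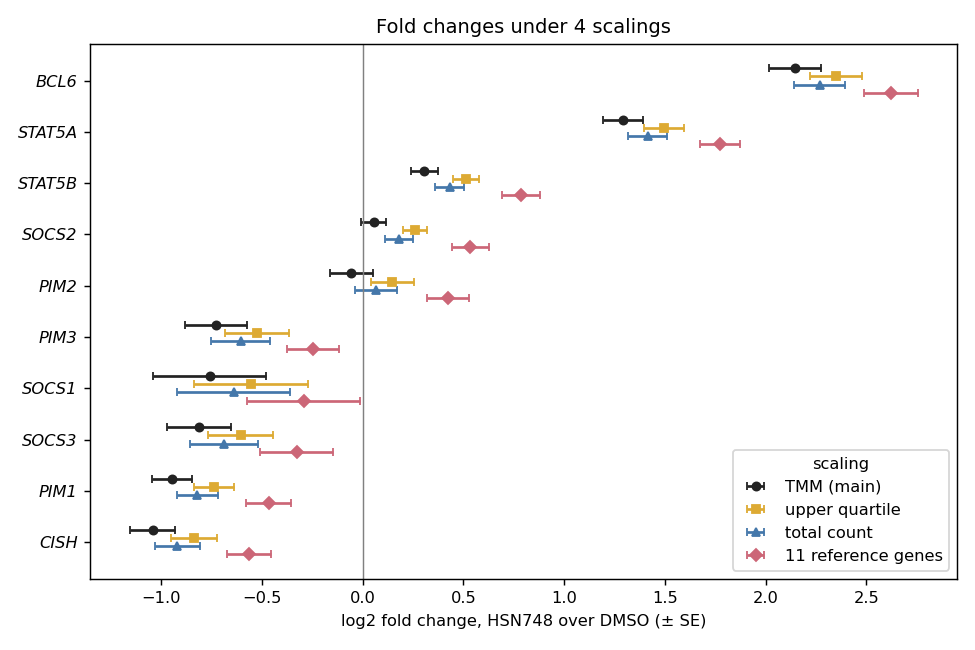
Log2 fold change of each gene, HSN748 over DMSO (horizontal axis), with its SE, under TMM, upper-quartile, total-count and reference-gene scaling. BCL6, STAT5A and STAT5B are above 0 and CISH, PIM1, SOCS3, SOCS1 and PIM3 below 0 under all of them, while PIM2 goes from -0.06 with TMM to 0.42 with the reference genes.

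By count, the 10 genes were not set apart from the rest. Of the 10, 8 passed, against 73.1% of all tested genes. Higher were 3 of 10, against 36.6% of all genes, and lower were 5 of 10, against 36.5%. STAT5A, BCL6 and CISH passed with a log2 fold change beyond 1, 3 of 10 against 31.9% of all genes. In 8 of 10 the groups did not overlap, against 75.4%. Their median log2 fold change was -0.39 and their median absolute one 0.79, beside 0.01 and 0.64 over all genes. With scaling to the reference genes, 5 were higher and 2 lower and their median was 0.09.

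The order of the levels changed between the groups. Per kilobase of exon, the mean levels in DMSO were 52.5 CPM for SOCS2, 16.2 for STAT5B, 12.1 for PIM3, 10.8 for PIM2, 9.01 for CISH, 7.53 for STAT5A, 5.35 for PIM1, 2.27 for SOCS3, 1.35 for SOCS1 and 1.12 for BCL6. Of the neighbors in this order, PIM3 and PIM2, CISH and STAT5A, and SOCS1 and BCL6 overlapped in their values. In HSN748 the order was SOCS2 (54.5), STAT5B (20.0), STAT5A (18.4), PIM2 (10.4), PIM3 (7.29), BCL6 (4.95), CISH (4.37), PIM1 (2.78), SOCS3 (1.30) and SOCS1 (0.795). Here STAT5B and STAT5A, and BCL6 and CISH, overlapped. BCL6 was thus the lowest of the 10 in DMSO and above PIM1, SOCS3 and SOCS1 in HSN748.

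Genes with a pattern near that of BCL6 and CISH were sought among 9948 other genes averaging 5 CPM or more, by the root mean square difference of log2(CPM + 1), centered on its mean over the 6 libraries. Nearest to BCL6 were RPS6KA2, which encodes a ribosomal S6 kinase (difference 0.0703, log2 fold change 2.08), TIMP2, an inhibitor of matrix metalloproteinases (0.0715, log2 fold change 1.97), and ITGA6, an integrin subunit (0.0743, log2 fold change 2.34). Nearest to CISH were PEX10, a peroxisome biogenesis gene (0.0523, log2 fold change -1.15), PTPRS, a receptor tyrosine phosphatase (0.0523, log2 fold change -0.99), and SURF6, a nucleolar gene (0.0538, log2 fold change -0.96). With 6 libraries in 2 groups, such a match is chiefly a match of fold change.

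Other genes known to be induced or repressed by STAT5 were mostly lower. The list was chosen with earlier results of these data known. It holds MYC and GATM, an enzyme gene of creatine synthesis, both of which the study had reported as lower. It mixes induced and repressed genes, so it sets no single direction. Of 19 listed, 14 were tested, of which 11 were lower, 2 higher and 1 (BCL2L1, 0.06) did not pass. Their median log2 fold change was -1.21. Of all tested genes, 36.5% were lower and 36.6% higher, and 73.1% passed in either direction. CCND2, which encodes cyclin D2, fell from 242 ± 13.2 to 54.2 ± 2.79 CPM (SD, n = 3 each; log2 fold change -2.16, adjusted p = 6.4e-08). CCND1, the cyclin D1 gene, fell from 23.3 ± 1.53 to 0.945 ± 0.246 CPM (log2 fold change -4.61, adjusted p = 7.5e-08), and MYC, a growth-promoting transcription factor, from 404 ± 34.8 to 92.9 ± 5.91 CPM (-2.12, adjusted p = 1.3e-07). The genes that rose were ID2, an inhibitor of helix-loop-helix factors (1.18, adjusted p = 1.4e-06), and CDKN1A, the cell cycle inhibitor p21 (0.42, adjusted p = 0.00737). Many of these genes also answer to other signals, and which of them STAT5 controls in these cells was not measured.

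The rest of the STAT and JAK families moved with STAT5A and STAT5B. Of 8 tested, 7 were higher, 0 lower and 1 did not pass (median 0.90), beside 36.6% higher and 36.5% lower of all genes. STAT2, which acts in the type I interferon response, rose from 50.4 ± 4.26 to 231 ± 13.0 CPM (SD, n = 3 each; log2 fold change 2.20, adjusted p = 9.4e-08). STAT6, the factor of interleukin-4 signaling, rose by 0.83 (adjusted p = 7.1e-06), and the kinase genes TYK2 and JAK1 by 0.97 (adjusted p = 9.6e-06) and 0.78 (adjusted p = 1.3e-05) on the log2 scale. These directions held under every scaling.

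Among receptors listed as able to signal through STAT5, 12 of 22 were tested, with 9 higher, 2 lower, 1 not passing and a median of 0.35. The higher ones include IL4R (0.28), the receptor of interleukin-4, for which STAT6 is named above, and IL6R (0.19) and IL6ST (0.43). Whether each receptor used STAT5 in these cells was not measured. Over all genes the shares were 36.6% higher and 36.5% lower. CSF1R, the receptor of macrophage colony-stimulating factor, rose from 11.1 ± 1.26 to 229 ± 21.5 CPM (SD, n = 3 each; log2 fold change 4.37, adjusted p = 2.4e-08), and CSF3R, that of granulocyte colony-stimulating factor, by 2.53 (adjusted p = 1.2e-07). FLT3 itself rose from 396 ± 18.8 to 1150 ± 24.9 CPM (log2 fold change 1.54, adjusted p = 2.9e-07), and LEPR, the leptin receptor, by 1.31 (adjusted p = 1.3e-05). CSF1R and FLT3 are also among the myeloid markers above. IL7R, the interleukin-7 receptor, fell by 1.05 on the log2 scale (adjusted p = 4.9e-05) and EPOR, the erythropoietin receptor, by 0.47 (adjusted p = 0.0115). EPOR did not pass without HSN748 culture 8 or with upper-quartile factors, and turned to 0.01 with the reference genes. Without HSN748 culture 9, 5 of the receptors were higher, and without HSN748 culture 8, 1 was lower.

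Inhibitors of JAK-STAT signaling outside the SOCS family went both ways, with 5 of 12 higher, 2 lower and 5 not passing (median 0.08). All tested genes were 36.6% higher and 36.5% lower. CBLB, a ubiquitin ligase that marks activated receptors and kinases for removal, rose from 24.1 ± 1.40 to 177 ± 2.16 CPM (SD, n = 3 each; log2 fold change 2.87, adjusted p = 2.3e-08), and PTPRC, the CD45 phosphatase, rose by 0.99 on the log2 scale (adjusted p = 2.8e-05). PTPN11, the SHP2 phosphatase, which also promotes RAS-ERK signaling, had a log2 fold change of -1.09 (adjusted p = 6.0e-06), and PTPN1, the PTP1B phosphatase, one of -0.70 (adjusted p = 4.8e-05), which did not pass with the reference genes (-0.22, adjusted p = 0.0522). A fall of PTPN11 had been reported by the study.

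The remaining SOCS genes and the partners of the SOCS box, a motif that recruits a ubiquitin ligase, went both ways. Of 8 tested, 2 were higher, 2 lower and 4 did not pass (median -0.23, and 0.24 with the reference genes). The shares over all genes were 36.6% higher and 36.5% lower. ELOC, the elongin C gene, had a log2 fold change of -1.12 (adjusted p = 1.8e-04). SOCS5 (0.44, adjusted p = 0.0102), the RING subunit gene RNF7 (0.33, adjusted p = 0.0161) and SOCS7 (-0.43, adjusted p = 0.0276) also passed. RNF7 did not pass without DMSO culture 1 or without HSN748 culture 7, and SOCS7 did not pass without DMSO culture 2, HSN748 culture 7 or HSN748 culture 8, nor with the upper-quartile factors or the total count, and turned to 0.05 with the reference genes. Without DMSO culture 3, 4 genes of the list were lower.

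Genes whose proteins PIM kinases phosphorylate were examined for their mRNA alone. Of 20, 4 were higher, 8 lower and 8 did not pass (median -0.06, and 0.42 with the reference genes). Beside them, 36.6% of all genes were higher and 36.5% lower. CDC25A and CDC25C, phosphatases that drive the cell cycle, had log2 fold changes of -4.22 (adjusted p = 2.2e-08) and -2.25 (adjusted p = 4.8e-07), MYC had -2.12 as above, and CBX3, a heterochromatin protein, had -1.16 (adjusted p = 4.3e-06). FOXO1 (1.13, adjusted p = 4.6e-06) and FOXO3 (0.40, adjusted p = 0.00149), transcription factors of quiescence, and CXCR4, a chemokine receptor (0.73, adjusted p = 5.8e-05), were higher.

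Corepressors of BCL6 were 5 higher, 1 lower and 4 not passing out of 10 (median 0.15), against 36.6% higher and 36.5% lower of all genes. HDAC5, a class II histone deacetylase, rose by 1.43 on the log2 scale (adjusted p = 7.6e-06) and HDAC7 by 0.48 (adjusted p = 6.5e-04). SIN3A, a scaffold of deacetylase complexes, had a log2 fold change of -0.58 (adjusted p = 3.8e-05), which did not pass with the reference genes (-0.10, adjusted p = 0.351). Without DMSO culture 3, 2 corepressors were lower.

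Genes that BCL6 is known to repress, mainly in germinal center B cells, did not move as 1 group. Of 25 listed, 20 were tested, of which 7 were higher, 10 lower and 3 did not pass (median -0.22, and 0.26 with the reference genes). Over all tested genes, 36.6% were higher and 36.5% lower. CD86, a costimulatory surface protein, rose from 3.95 ± 0.312 to 41.9 ± 1.78 CPM (SD, n = 3 each; log2 fold change 3.41, adjusted p = 3.0e-08), and PRDM1, the transcription factor BLIMP1, from 12.4 ± 1.60 to 54.9 ± 2.26 CPM (2.14, adjusted p = 3.4e-07). ID2, also higher, is described above. CHEK1, a checkpoint kinase, went from 97.8 ± 8.83 to 12.8 ± 1.24 CPM (-2.93, adjusted p = 7.2e-08), and CCND1, CCND2 and MYC, all lower, belong to this list as well as to the STAT5 targets, so the lists are not independent.

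**Figure D5:**
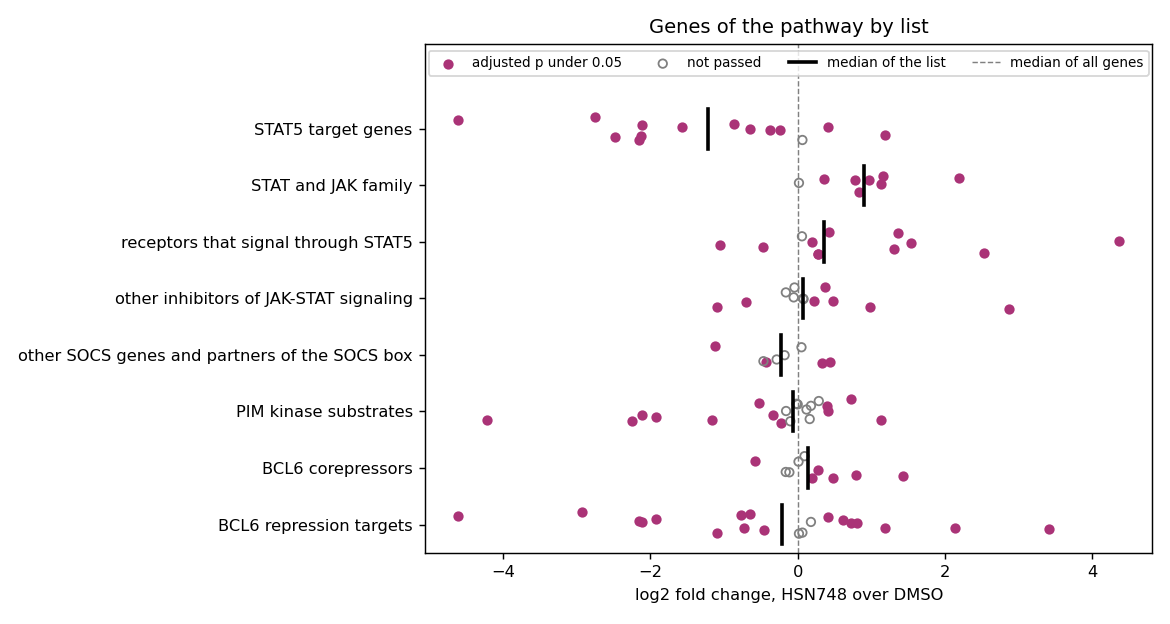
Log2 fold change, HSN748 over DMSO, of each tested gene of 8 lists (1 list per line). Filled points passed at an adjusted p under 0.05, open ones did not, the black bar is the median of the list and the dashed line the median of all genes (0.01). The STAT5 targets lie mostly to the left (median -1.21), the STAT and JAK family to the right (0.90), and the BCL6 repression targets on both sides.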

How the data were processed

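MOLM14 cultures were treated with DMSO (3) or 2 nM HSN748 (3) for 24 h. TRIzol RNA was sequenced from low-input libraries. The deposited table holds whole-number read counts of 13244 genes, produced by the authors with bcl2fastq and STAR (named in the submitters' processing notes). The counting program, its strand setting, the annotation and the build were not given in the sources used here. Another 12 columns of log values and the authors' own fold changes, p-values and FDR values were not used.

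After filterByExpr, which took out 160 genes and left 13084, TMM factors (0.946 to 1.07) scaled the libraries, and the groups were compared with edgeR 4.0.16 in R 4.3.3 (quasi-likelihood F test, Benjamini-Hochberg adjustment, treatment as the only term, all 6 cultures). The biological coefficient of variation was 11.2%. Levels per kilobase used the deposited exonic length of each gene, and log2 ratios were taken within a library with 0.5 added to each count. The test was checked on simulated counts in which few genes changed, as many up as down. In the data 73.1% of genes passed, so that check does not bear on the choice of scaling. Alternatives were DESeq2 1.42.0, limma-voom (limma 3.58.1), other scalings and filters, a count of 2 added in ratios, and leaving out each culture. Motifs and shared windows were searched with Python 3.11.15 in RefSeq promoters and GENCODE v29 transcripts, and the plots were drawn with matplotlib 3.10.9.

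The 10 genes and the lists were chosen with earlier results of these data known. Besides all 10, the text names, for each list, up to 4 genes with the smallest adjusted p, up to 3 that passed against the direction of most, and the 3 genes nearest in pattern to the largest rise and the largest fall. BCL2L1, IL4R, IL6R, IL6ST, MAPKAPK3, SOCS2-AS1 and ZNF225 were named after their values were seen. GATM is named because the study had reported it as lower. A planned comparison of protein sequences was not made. Some genes that the rule selects are not reported here.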

Additional observations from a re-analysis of the deposited data

How the results depend on the processing

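Over 14 alternatives, STAT5A, STAT5B, PIM1, CISH and BCL6 kept their direction and their side of the threshold. Of 476 alternative values for 39 results, 434 were counted as the same. For a fold change this meant the same direction and side of the threshold, and for a count a value near the reported one. A ratio had only to keep its sign, whatever its size. With the reference genes, of which 6 of 11 were themselves lower and 1 higher with TMM, PIM3 was at -0.25 (adjusted p = 0.102), SOCS3 at -0.33 (adjusted p = 0.120) and SOCS1 at -0.29, and 5 members were higher and 2 lower. SOCS1 was at -0.55 with upper-quartile factors and -0.64 with the total count, without passing. SOCS2 passed at 0.26, 0.18 and 0.53 with the upper-quartile factors, the total count and the reference genes. PIM2 was above 0 with these (0.15, 0.067 and 0.42), without DMSO culture 3 (0.0029) and without HSN748 culture 8 (0.0080). Leaving out 1 culture gave -0.14 to 0.01 for PIM2, -0.99 to -0.52 for SOCS1, 4 to 5 members lower and 2 to 3 members beyond 1 on the log2 scale. The difference in the log2 ratio was then between -0.35 and -0.09 for PIM1 to PIM3, -0.43 and -0.14 for CISH to SOCS1, and -0.42 and -0.0024 for CISH to SOCS3. That of SOCS1 to SOCS3 was between -0.28 and 0.41, below 0 without DMSO culture 2 (-0.02), DMSO culture 3 (-0.02) or HSN748 culture 9 (-0.28).

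For the lists, 1 gene of the other SOCS list was lower with the upper-quartile factors, the total count or the reference genes, and between 1 and 2 were higher and 1 and 4 lower when a culture was left out. Of the receptors, 1 was lower with the upper-quartile factors or the reference genes, and 5 to 9 were higher and 1 to 2 lower when a culture was left out. Of the PIM substrates, 8 were higher with the upper-quartile factors, 7 with the total count and 12 with the reference genes, which gave 5 lower. The reference genes gave 10 higher and 1 lower of the other inhibitors, and 8 higher and 0 lower of the BCL6 corepressors, of which 1 to 2 were lower when a culture was left out. The cause was not tested, beyond the shift that each scaling gives to all genes. No paired analysis was made, because the labels do not say whether any cultures of the groups were matched. SOCS1, with 26 to 122 counts per library, was the member that depth limited most.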
